A study of Mus musculus with 24 samples.

Results

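Cholesterol and fatty acid synthesis genes were followed across mouse thyroid and thyroid tumours on 24 Affymetrix arrays. The list held 35 genes, named by their place in the 2 pathways, and 33 of them were measured among the 12394 genes of the array. Acat2 and Insig1 were not analysed here. The measured members were 17 enzymes of sterol synthesis, 4 regulators or carriers of sterols and 12 genes of fatty acid synthesis, elongation and desaturation. Where a gene had several probe sets, the brightest on average stood for it, without regard to group.

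The arrays came from 6 pools of normal mouse thyroid glands, 4 papillary thyroid carcinomas (PTC), 5 anaplastic thyroid carcinomas (ATC) and 9 recurrent tumours, in a series on resistance to inactivation of BRAF, a kinase of the MAPK pathway. The labels give the tissue class of each array and state that the tissues came from several mouse models. Apart from WT or Cre in the titles of normal pools, the sources used here name no genotype. They also do not name strain, age, the driving transgene or any drug schedule. Each normal array is a pool of glands, so the spread among normal arrays is a spread among pools. Nothing in the labels says that tumours of a group came from separate animals, and the p-values below measure the spread between these samples, which may be partly technical. Titles fall into 3 kinds. JK is written on 4 normal pools, the 4 PTC, 2 ATC and 3 recurrent arrays, and those 4 pools also carry WT. Cre is written on the other 2 normal pools (5 and 6), and 3 ATC and 6 recurrent arrays carry a number alone. The normal group thus mixes WT-titled and Cre-titled pools.

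Cholesterol is built from acetyl-CoA through mevalonate, farnesyl diphosphate and squalene, and squalene is then epoxidised, closed to lanosterol and trimmed to cholesterol. The transcription factor SREBP2, encoded by Srebf2, drives most enzymes of that route when membrane sterol is low, while INSIG proteins hold it in the endoplasmic reticulum when sterol is plentiful. Fatty acids are built from the same acetyl-CoA by acetyl-CoA carboxylase and fatty acid synthase, with NADPH in part from malic enzyme, under SREBP1 (Srebf1), thyroid hormone and insulin. In the neck, brown fat lies against the thyroid, and fat cells carry out fatty acid synthesis at a high rate.

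SREBPs act at promoters together with NF-Y, a factor that binds the letters CCAAT. RefSeq promoter windows (mouse build GRCm38.p6, 250 bases before to 50 after the start site) were matched for 27 of the 33 measured members. The letters CCAAT, on either strand, stood in 24 of 27 (88.9%) and in all 14 sterol enzymes that had a window, against 42.3% of 9888 measured genes with one and 37.4% of all 32851 windows. Among the fatty acid genes 7 of 10 had it, and Acaca, Elovl6 and Fads2 did not in this window. The GC box GGGCGG was in 21 of 27 member windows (77.8%), against 61.0% of measured genes. The E-box CACGTG was in 4 of 27 (14.8%; Dhcr7, Elovl5, Hsd17b7 and Sc5d), against 10.8% of measured genes. One spelling of the sterol regulatory element, TCACNCCAC, was in 1 of 27 (3.7%; Hmgcs1), against 1.5% of measured genes. All motifs were searched on both strands and counted 1 at a time, so matches of different motifs may share bases. Elovl6 and Fads2, which lack CCAAT in this window, were also called lower in recurrent tumours and are not shown. The promoters below, of 4 sterol enzymes called higher and 2 fatty acid genes called lower in recurrent tumours, are examples that all carry CCAAT. Each is the 200 bases before the start, 5′ to 3′ on the gene's strand, with every CCAAT, or its reverse complement ATTGG, in capitals. They lie at chr13:8885406-8885605 on the plus strand (Idi1), and on the minus strand at chr5:4104698-4104897 (Cyp51), chr8:64733579-64733778 (Msmo1), chr1:169969206-169969405 (Hsd17b7), chr11:120824548-120824747 (Fasn) and chr7:97417551-97417750 (Thrsp).
Idi1: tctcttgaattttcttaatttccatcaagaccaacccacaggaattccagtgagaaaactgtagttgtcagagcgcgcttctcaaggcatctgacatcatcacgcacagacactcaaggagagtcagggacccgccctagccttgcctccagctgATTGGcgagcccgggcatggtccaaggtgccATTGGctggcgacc
Cyp51: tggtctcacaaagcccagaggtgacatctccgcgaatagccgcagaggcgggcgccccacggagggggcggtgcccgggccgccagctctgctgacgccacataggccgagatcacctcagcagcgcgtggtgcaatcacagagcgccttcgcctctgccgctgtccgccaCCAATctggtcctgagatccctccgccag
Msmo1: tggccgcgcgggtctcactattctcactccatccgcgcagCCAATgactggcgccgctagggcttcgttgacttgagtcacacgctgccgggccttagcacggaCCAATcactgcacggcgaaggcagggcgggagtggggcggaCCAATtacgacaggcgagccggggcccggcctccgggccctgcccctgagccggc
Hsd17b7: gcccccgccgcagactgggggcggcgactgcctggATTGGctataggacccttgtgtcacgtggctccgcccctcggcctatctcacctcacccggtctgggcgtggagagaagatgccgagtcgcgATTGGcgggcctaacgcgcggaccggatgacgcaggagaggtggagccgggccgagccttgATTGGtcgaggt
Fasn: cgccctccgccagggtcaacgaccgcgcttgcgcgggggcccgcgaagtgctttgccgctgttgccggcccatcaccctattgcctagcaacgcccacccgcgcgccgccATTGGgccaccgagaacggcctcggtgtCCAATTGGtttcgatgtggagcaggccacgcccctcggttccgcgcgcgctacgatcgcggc
Thrsp: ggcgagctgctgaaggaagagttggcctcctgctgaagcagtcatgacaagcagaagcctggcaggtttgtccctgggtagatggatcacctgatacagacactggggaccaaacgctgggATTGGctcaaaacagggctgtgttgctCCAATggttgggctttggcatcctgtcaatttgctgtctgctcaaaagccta
The motif starts at -45 and -14 from the start site in Idi1, -29 in Cyp51, -160, -96 and -55 in Msmo1, and -165, -73 and -12 in Hsd17b7. In Fasn it starts at -90, -62 and -59, where the last 2 overlap, and in Thrsp at -79 and -52. A match describes the letters of the window, and binding was not measured.

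Some facts of the arrays bear on every comparison. Array medians lay between 7.38 and 7.58 on the deposited log2 scale. Braf signal was 10.29 to 11.98 on the ATC arrays and 5.62 to 7.14 on recurrent arrays other than array 2, but 11.14 on the array labelled recurrent 2, which lay in the ATC range. Recurrent array 6 was high in 5 of 6 measured sebaceous gland markers, among them Scd3 at 14.66, Elovl3 at 13.99 and Mc5r at 9.44, while the sixth, Plin5, was at 6.07 there and 6.31 to 8.17 in normal pools. The mean of 6 such markers was 4.44 above the normal mean there and -1.44 to -0.01 on the other 8 recurrent arrays. Normal pool 5 was low in fat cell markers, with Ucp1, the brown fat uncoupling protein, at 5.60 against 10.86 to 12.18 on the other pools. The difference between 3′ and 5′ Gapdh probe sets, a sign of RNA integrity, was 0.64 to 0.98 on normal pools and 1.11 to 1.60 on PTC. It was 0.82 to 0.96 on the ATC arrays with JK in the title and 0.06 to 0.15 on those without, and on recurrent arrays 0.36 to 1.07 with JK and -0.02 to 0.17 without. This measure therefore moved with title kind in both groups, and most recurrent arrays lay below the normal pools on it. The part of these differences in the results below was not tested.

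The called members of the 2 pathways moved in opposite directions in ATC and recurrent tumours, but not in PTC. Against normal thyroid, 4 of 17 sterol enzymes rose in ATC and 7 of 17 in recurrent tumours, none fell, and the other 13 and 10 were not called. Of the 12 fatty acid genes 9 fell in ATC and 6 in recurrent tumours, and none rose. In PTC no member rose and 3 of 33 fell, 1 sterol enzyme and 2 fatty acid genes. A gene was called where limma's adjusted p, over all 12394 genes and with the spread shared by all 24 arrays, was under 0.05. Over all measured genes 14.2% were called in PTC against normal (6.16% higher, 8.03% lower), 34.3% in ATC against normal (15.1% higher, 19.1% lower) and 33.8% in recurrent against normal (14.5% higher, 19.3% lower). Of the 33 members 3, 15 and 16 were called in these comparisons, and the called sterol enzymes were all higher, and the called fatty acid genes all lower, in ATC and recurrent tumours. The median difference over sterol enzymes was -0.41 in PTC, 0.24 in ATC and 0.46 in recurrent tumours, and over fatty acid genes -0.66, -1.06 and -0.75. The median over all genes was -0.01, -0.08 and -0.03. Counted by arrays alone, 6 members lay in ATC wholly above all pools and 10 wholly below, where 34.1% of all genes did not overlap (14.9% higher, 19.2% lower). In recurrent tumours 6 lay wholly above and 1 wholly below, where 8.02% of all genes did not overlap (2.9% higher, 5.12% lower). These comparisons share the same 6 normal pools and are not independent. In whole tissue, fewer cells of a type and less RNA per cell cannot be told apart.

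**Figure D1:**
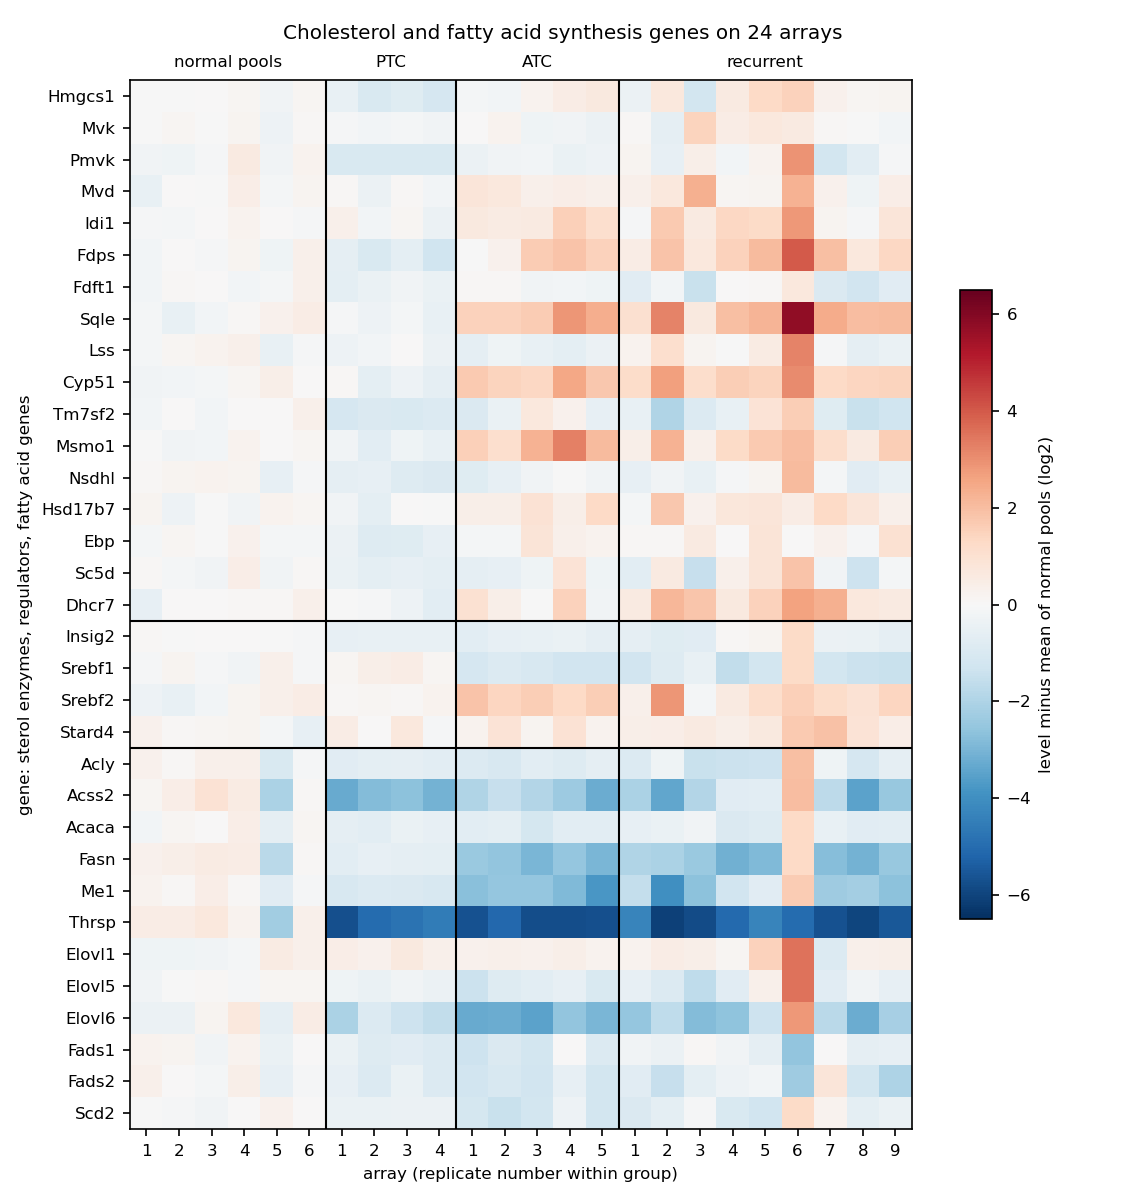
Log2 level of each of the 33 measured members (rows, by pathway branch) on each of the 24 arrays (columns, by group), shown as the difference from that gene's mean over the 6 normal pools. Rows of sterol enzymes such as Sqle, Cyp51 and Msmo1 are raised in ATC and recurrent tumours, rows of fatty acid genes such as Fasn, Me1 and Thrsp are lowered, and recurrent array 6 stands apart as high in both branches.

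Some sterol enzymes also differed between PTC and the other tumour classes. In ATC against PTC 7 of 17 rose and none fell, with a median of 0.82 where all genes had -0.06 (10 of 33 members called, 8 higher and 2 lower; 17.2% of all genes, 7.81% higher and 9.35% lower). By arrays alone 11 members lay wholly above PTC and 5 wholly below, where 32.5% of all genes did not overlap (15% higher, 17.5% lower). In recurrent tumours against PTC 8 of 17 rose and none fell, with a median of 0.94 where all genes had -0.01 (10 of 33 members called, 9 higher and 1 lower; 21.8% of all genes, 9.71% higher and 12.1% lower). By arrays alone 6 members lay wholly above PTC and none below, where 9.56% of all genes did not overlap (4.05% higher, 5.51% lower). Between recurrent tumours and ATC none of the 33 members was called by limma, where 4.32% of all genes were (1.19% higher, 3.12% lower), and none lay apart by arrays alone, where 0.888% of all genes did (0.202% higher, 0.686% lower). At an unadjusted p under 0.05, 4 members were higher and 1 was lower, and the lowest adjusted p was 0.145 (Dhcr7). With each library weighted by its fit, 2 members were called there, and 11% of all genes.

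Of the 7 enzymes from acetyl-CoA to squalene, none was called in ATC against normal and 2, Fdps and Idi1, rose in recurrent tumours. Fdps makes farnesyl diphosphate, the branch point to sterols and prenylated proteins. Its log2 level was 7.33 to 7.94 (median 7.55) in the 6 normal pools, 7.02, 6.61, 6.95 and 6.30 in PTC, and 8.10 to 11.56 (median 9.10) in the 9 recurrent tumours. In ATC it was 7.59 and 7.86 on the arrays with JK in the title and 9.23, 9.44 and 9.09 on the others. Every recurrent array lay above every normal pool and every PTC, and PTC lay below normal without overlap. The rise was 1.61 ± 0.40 (SE), or 3.05-fold, in recurrent tumours against normal (adjusted p = 0.00307) and 2.49 ± 0.45, or 5.61-fold, against PTC (adjusted p = 0.000365). ATC was higher than PTC by 1.92 ± 0.50 (adjusted p = 0.0103), but within the JK arrays Fdps differed by 1.01 (adjusted p = 0.0596). With the 3 title kinds as a block the recurrent difference from normal was 0.87 (adjusted p = 0.158). A second Fdps probe set stayed near 3.3 in all groups.

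Hmgcs1, the synthase of HMG-CoA, was 10.30 to 10.64 (median 10.53) in normal pools and 10.04, 9.54, 9.73 and 9.45 in PTC. It was 10.38, 10.36, 10.77, 11.02 and 11.13 in ATC and 9.33 to 12.03 (median 10.79) in recurrent tumours. PTC lay below both normal pools and ATC, and recurrent tumours spanned all groups. Against PTC, Hmgcs1 rose by 1.04 ± 0.36 in ATC (adjusted p = 0.0478) and 1.17 ± 0.32 in recurrent tumours (adjusted p = 0.0112). Neither call held within the JK arrays, where the differences were 0.68 (adjusted p = 0.267) and 0.54 (adjusted p = 0.237). Idi1, which isomerises isopentenyl diphosphate, was 8.50 to 8.85 (median 8.61) in normal pools, 8.94, 8.46, 8.78 and 8.24 in PTC, 9.25, 9.16, 9.23, 10.19 and 9.75 in ATC, and 8.56 to 11.45 (median 9.44) in recurrent tumours. It rose in recurrent tumours against normal by 0.95 ± 0.32 (adjusted p = 0.0261), with some overlap. All 5 ATC arrays lay above all normal pools, but that difference of 0.88 ± 0.37 had an adjusted p of 0.0716. Within the JK arrays the recurrent difference of Idi1 was 0.74 (adjusted p = 0.0895). Mvk, Pmvk, Mvd and Fdft1, the kinases, decarboxylase and squalene synthase of this branch, were called in no comparison, although Pmvk in PTC (7.54 to 7.56) lay wholly below normal pools (8.29 to 9.13).

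After squalene, 4 of 10 enzymes rose in ATC and 5 of 10 in recurrent tumours against normal. Sqle, squalene epoxidase, the first oxygenation and a control point of the route, was 6.99 to 7.93 (median 7.44) in normal pools and 7.40, 7.13, 7.32 and 6.99 in PTC. It was 8.99, 8.95, 9.10, 10.35 and 9.81 in ATC and 8.13 to 13.25 (median 9.55) in recurrent tumours. Every ATC and every recurrent array was above every normal pool and every PTC. Sqle rose 3.91-fold in ATC (1.97 ± 0.57 log2, adjusted p = 0.00982) and 5.2-fold in recurrent tumours (2.38 ± 0.50, adjusted p = 0.000737) against normal. Against PTC it rose by 2.23 ± 0.63 in ATC (adjusted p = 0.0169) and 2.64 ± 0.57 in recurrent tumours (adjusted p = 0.00167). With the 3 title kinds as a block, Sqle in ATC was higher by 1.56 against normal (adjusted p = 0.0848) and by 1.64 against PTC (adjusted p = 0.108), so neither call held. Without recurrent array 6 the rise of Sqle in recurrent tumours over normal was 1.95 (adjusted p = 2.65e-05). The difference between recurrent tumours and ATC was 0.41, with a 95% interval of -0.67 to 1.50.

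**Figure D2:**
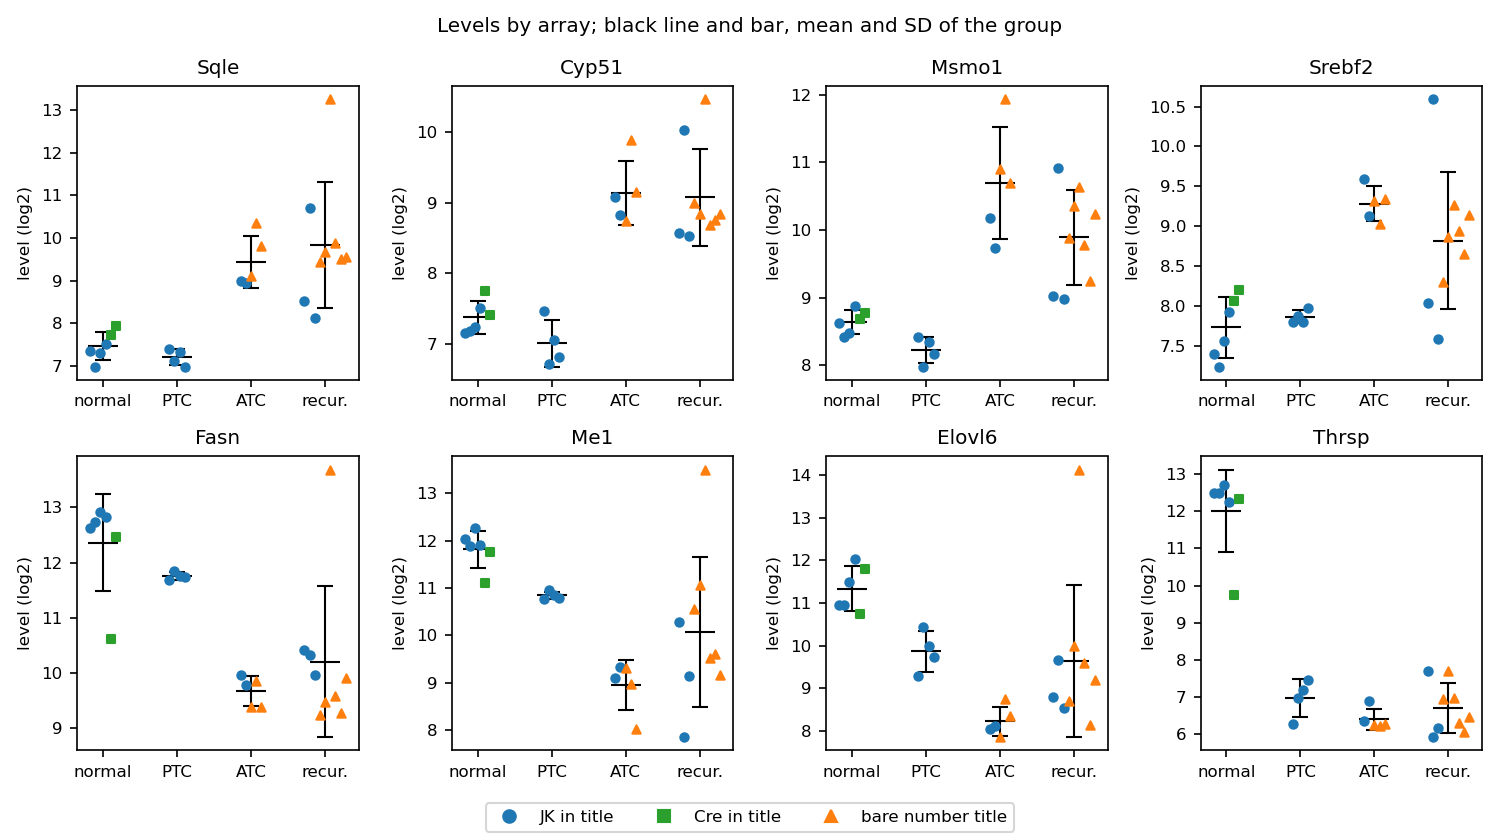
Log2 level (vertical axis) of 8 members on each array (points), by group, with the marker and colour giving the kind of title and the black line and bar the mean and SD of the group. Sqle lies between 6.99 and 7.93 in normal pools and PTC and between 8.13 and 13.25 in ATC and recurrent tumours, while Thrsp lies at 9.76 or above in normal pools and at 7.71 or below in all tumours.

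Cyp51, the lanosterol demethylase, rose in both ATC and recurrent tumours. It was 7.16 to 7.75 (median 7.33) in normal pools, 7.46, 6.72, 7.05 and 6.81 in PTC, 9.08, 8.83, 8.74, 9.89 and 9.15 in ATC, and 8.53 to 10.46 (median 8.84) in recurrent tumours. All 14 ATC and recurrent arrays were above all 10 normal and PTC arrays. The rise over normal was 1.76 ± 0.30 in ATC (3.39-fold, adjusted p = 9.18e-05) and 1.70 ± 0.26 in recurrent tumours (3.25-fold, adjusted p = 2.94e-05). Over PTC it was 2.13 ± 0.33 (adjusted p = 0.000107) and 2.07 ± 0.30 (adjusted p = 2.7e-05). Recurrent tumours and ATC differed by -0.06, with a 95% interval of -0.63 to 0.51. Within the JK arrays Cyp51 was higher than normal by 1.68 in ATC (adjusted p = 0.00396) and 1.76 in recurrent tumours (adjusted p = 0.000931).

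Msmo1, the methylsterol monooxygenase that removes methyl groups after Cyp51, had its highest group mean in ATC. It was 8.41 to 8.88 (median 8.65) in normal pools, 8.42, 7.98, 8.34 and 8.17 in PTC, 10.18, 9.74, 10.90, 11.93 and 10.69 in ATC, and 8.98 to 10.91 (median 9.88) in recurrent tumours. ATC and recurrent arrays again lay above all normal and PTC arrays, and overlapped each other. The rise over normal was 2.04 ± 0.34 in ATC (4.13-fold, adjusted p = 8.51e-05) and 1.25 ± 0.30 in recurrent tumours (2.38-fold, adjusted p = 0.00249). Over PTC it was 2.46 ± 0.38 (adjusted p = 0.000107) and 1.66 ± 0.34 (adjusted p = 0.00115). Recurrent tumours differed from ATC by -0.79, with a 95% interval of -1.45 to -0.14, and this did not pass the adjusted threshold (adjusted p = 0.171). With title kinds as a block the recurrent rise of Msmo1 over normal was 0.83 (adjusted p = 0.0982).

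Hsd17b7, a ketosteroid reductase of the same demethylation cycle, was 6.99 to 7.58 (median 7.42) in normal pools, 7.11, 6.70, 7.36 and 7.31 in PTC, 7.74, 7.74, 8.29, 7.74 and 8.63 in ATC, and 7.23 to 9.09 (median 8.08) in recurrent tumours. ATC did not overlap normal pools, and recurrent tumours did. The rises were small, 0.69 ± 0.26 in ATC (adjusted p = 0.0411) and 0.70 ± 0.22 in recurrent tumours (adjusted p = 0.0179) against normal, and 0.91 ± 0.28 (adjusted p = 0.029) and 0.93 ± 0.25 (adjusted p = 0.0111) against PTC. None of these 4 Hsd17b7 calls held within the JK arrays, where the differences were 0.50, 0.74, 0.62 and 0.87.

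In PTC, 8 of 17 sterol enzymes lay wholly below all pools by arrays alone, where 19.7% of all genes did. Ebp, the sterol isomerase, was the only one called lower there against normal. It was 9.47 to 9.90 (median 9.55) in normal pools, 9.25, 8.79, 8.83 and 9.07 in PTC, 9.49, 9.51, 10.43, 9.97 and 9.86 in ATC, and 9.56 to 10.58 (median 9.69) in recurrent tumours. PTC lay below every other array. The fall against normal was -0.63 ± 0.21 (adjusted p = 0.0453), a call lost when any single normal pool was left out. Ebp rose against PTC by 0.87 ± 0.22 in ATC (adjusted p = 0.0076; 0.52 within the JK arrays, adjusted p = 0.0959) and 0.94 ± 0.19 in recurrent tumours (adjusted p = 0.00128).

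Dhcr7 carries out the last reduction to cholesterol and was called in recurrent tumours only. It was 6.98 to 7.86 (median 7.57) in normal pools, 7.47, 7.46, 7.16 and 6.84 in PTC, 8.49, 7.92, 7.51, 9.03 and 7.31 in ATC, and 8.09 to 10.15 (median 9.0) in recurrent tumours. Every recurrent array was above every normal pool and PTC, while ATC overlapped both normal pools and recurrent tumours. The rise was 1.43 ± 0.32 over normal (2.7-fold, adjusted p = 0.00144) and 1.72 ± 0.37 over PTC (3.29-fold, adjusted p = 0.00164). The difference from ATC was 0.90, with a 95% interval of 0.19 to 1.61 and an adjusted p of 0.145, so the call in one class and not the other does not show that they differ. Lss, Tm7sf2, Nsdhl and Sc5d, the lanosterol synthase, a sterol reductase, a decarboxylating dehydrogenase and a desaturase, were called in no comparison. Tm7sf2 in PTC (6.81 to 7.04) nevertheless lay wholly below normal pools (7.73 to 8.23).

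**Figure D3:**
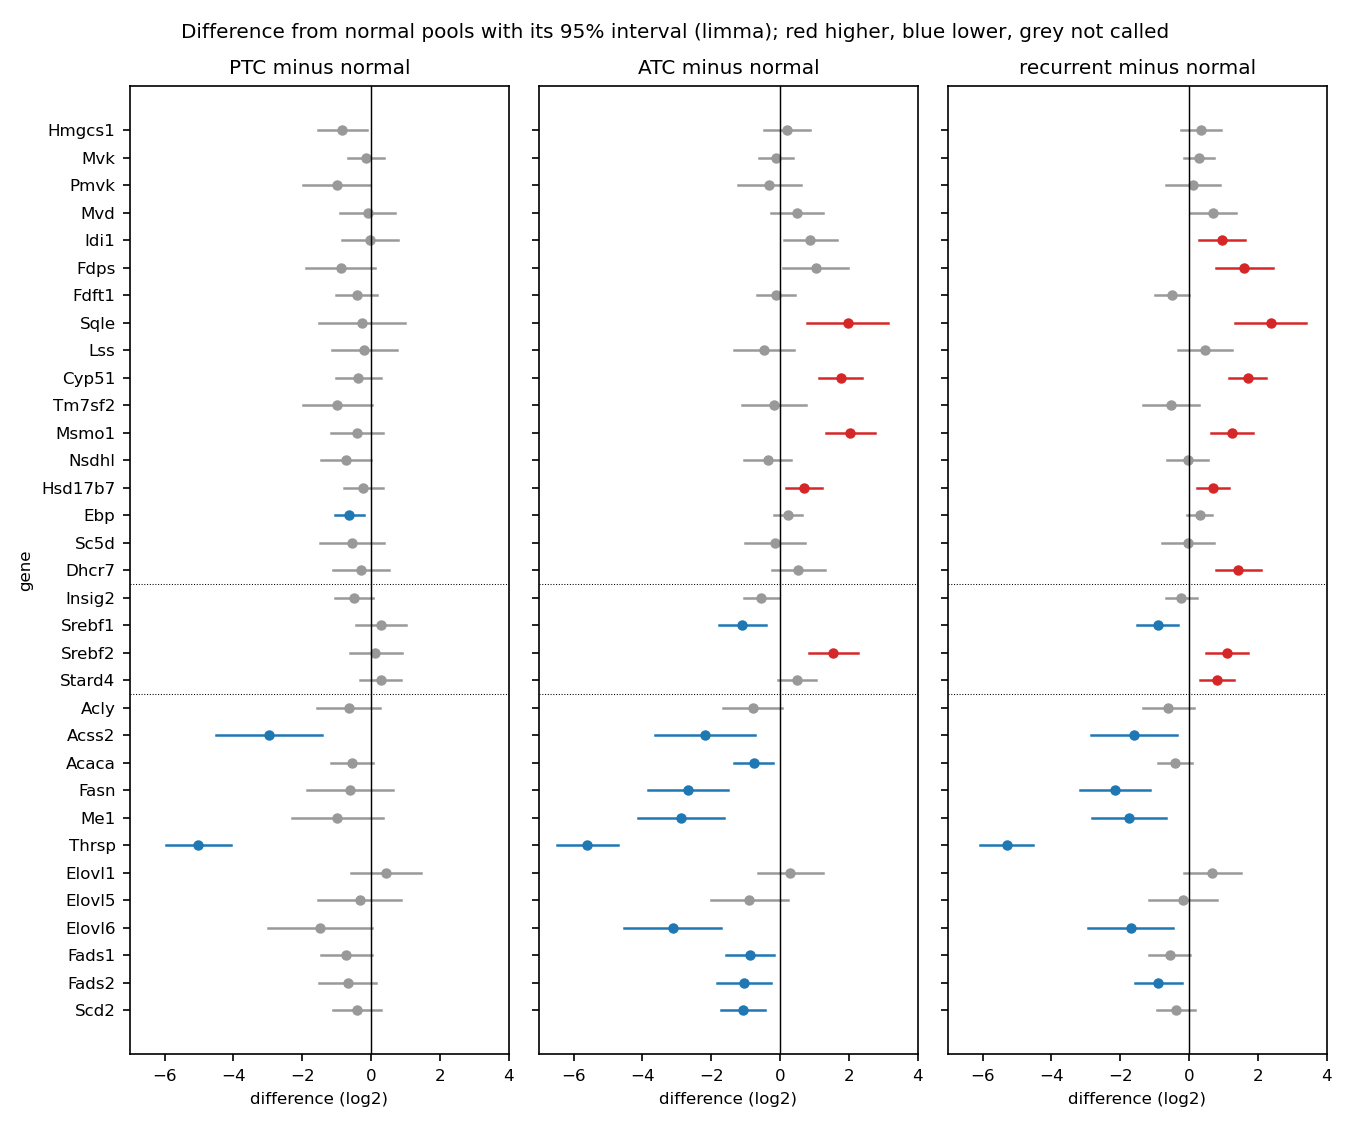
Log2 differences of the 33 members, with 95% intervals from the fit on all 24 arrays (red called higher, blue called lower, grey not called), for PTC, ATC and recurrent tumours against the 6 normal pools. Sterol enzymes such as Sqle, Cyp51 and Msmo1 lie to the right of 0 in ATC and recurrent tumours, and Fasn, Me1, Elovl6 and Thrsp lie to the left, with Thrsp at -5.02, -5.60 and -5.30.

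The 2 SREBP genes moved in opposite directions. Srebf2 was 7.24 to 8.20 (median 7.74) in normal pools, 7.80, 7.88, 7.80 and 7.97 in PTC, 9.59, 9.13, 9.32, 9.03 and 9.34 in ATC, and 7.58 to 10.59 (median 8.87) in recurrent tumours. All ATC arrays lay above all normal pools and PTC, and recurrent tumours overlapped all groups, with array 2 the highest. Srebf2 rose by 1.55 ± 0.34 in ATC (2.93-fold, adjusted p = 0.00117) and 1.09 ± 0.30 in recurrent tumours (2.13-fold, adjusted p = 0.00648) against normal. Against PTC it rose by 1.42 ± 0.38 (adjusted p = 0.0116) and 0.96 ± 0.34 (adjusted p = 0.0452). The last call was kept in 9 of 24 alternatives and was lost without any 1 of the PTC arrays, with title series as a block (0.83, adjusted p = 0.145) and with the mean of probe sets (0.48, adjusted p = 0.151). Within the JK arrays the rise of Srebf2 in recurrent tumours over normal was 1.21 (adjusted p = 0.0937). The array's other Srebf2 probe set did not follow, with differences from normal of 0.20 in ATC and 0.00 in recurrent tumours, so the change is that of 1 probe set of 2.

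Srebf1, whose product favours fatty acid genes, was 10.46 to 11.02 (median 10.64) in normal pools, 10.83, 11.09, 11.20 and 10.85 in PTC, 9.59, 9.83, 9.66, 9.48 and 9.47 in ATC, and 9.12 to 11.94 (median 9.49) in recurrent tumours. ATC lay wholly below normal pools and PTC, and in recurrent tumours array 6 was the highest. Srebf1 changed by -1.10 ± 0.33 in ATC (adjusted p = 0.0126) and by -0.90 ± 0.29 in recurrent tumours (adjusted p = 0.018) against normal. With the 3 title kinds as a block these were -0.96 (adjusted p = 0.0929) and -0.76 (adjusted p = 0.162), and the recurrent call was also lost in a fit of those 2 groups alone (adjusted p = 0.0669). Against PTC it changed by -1.38 ± 0.37 (adjusted p = 0.0112) and by -1.19 ± 0.33 (adjusted p = 0.0114). Stard4, a cholesterol carrier, was 6.11 to 6.92 (median 6.72) in normal pools, 7.10, 6.63, 7.33 and 6.56 in PTC, 6.86, 7.52, 6.79, 7.54 and 6.86 in ATC, and 6.99 to 8.52 (median 7.22) in recurrent tumours. Recurrent arrays lay wholly above normal pools, by 0.81 ± 0.23 (adjusted p = 0.00924), and by 0.31 within the JK arrays (adjusted p = 0.249). Insig2 was called in no comparison, with PTC (9.14 to 9.17) and ATC (8.97 to 9.23) wholly below normal pools (9.56 to 9.75).

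Of the fatty acid genes, 2 were called lower in PTC, 9 in ATC and 6 in recurrent tumours, and Thrsp had the largest difference in each. Thrsp, or Spot 14, is a lipogenic protein named for its induction by thyroid hormone. It was 9.76 to 12.70 (median 12.40) in normal pools, with pool 5 at 9.76 and the other 5 at 12.25 or above. It was 6.28, 6.98, 7.19 and 7.47 in PTC, 6.36, 6.89, 6.25, 6.23 and 6.28 in ATC, and 5.93 to 7.71 (median 6.48) in recurrent tumours. No tumour reached the lowest pool, and the 3 tumour classes overlapped each other. The falls against normal were -5.02 ± 0.45 in PTC (32.5-fold, adjusted p = 1.03e-07), -5.60 ± 0.43 in ATC (48.5-fold, adjusted p = 3.29e-09) and -5.30 ± 0.37 in recurrent tumours (39.4-fold, adjusted p = 4.77e-10). A second Thrsp probe set gave -5.51, -7.04 and -6.60. Recurrent array 6, high in most fatty acid genes, had Thrsp at only 6.98.

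Acss2, which makes acetyl-CoA from acetate, was the other fatty acid gene called lower in PTC. It was 7.52 to 10.52 (median 9.87) in normal pools, 6.32, 6.79, 6.95 and 6.50 in PTC, 7.64, 8.09, 7.70, 7.21 and 6.37 in ATC, and 6.10 to 11.58 (median 7.69) in recurrent tumours. Pool 5, at 7.52, was the only pool reached by ATC arrays, and PTC lay below all pools. The falls were -2.95 ± 0.75 in PTC (7.75-fold, adjusted p = 0.00888), -2.19 ± 0.70 in ATC (4.57-fold, adjusted p = 0.0179) and -1.60 ± 0.61 in recurrent tumours (adjusted p = 0.0456). The last call was kept in 13 of 28 alternatives. It was lost without any 1 of recurrent arrays 1, 2, 3, 7, 8 and 9 or of normal pools 1, 2, 3, 4 and 6, and without array 6 it was -2.05 (adjusted p = 0.00107).

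Fasn, fatty acid synthase, was 10.61 to 12.92 (median 12.68) in normal pools, 11.68, 11.84, 11.76 and 11.74 in PTC, 9.97, 9.79, 9.39, 9.85 and 9.38 in ATC, and 9.24 to 13.68 (median 9.91) in recurrent tumours. ATC lay below all pools and PTC, and the highest recurrent value was that of array 6. Fasn changed by -2.68 ± 0.56 in ATC (6.42-fold, adjusted p = 0.000758) and by -2.15 ± 0.49 in recurrent tumours (4.45-fold, adjusted p = 0.00158) against normal, and by -2.07 ± 0.62 in ATC against PTC (adjusted p = 0.0237). The last call was lost with the 3 title kinds as a block (adjusted p = 0.0556) and without any 1 of PTC arrays 2, 3 and 4 and ATC arrays 3 and 5. Between recurrent tumours and PTC the difference was -1.55 (adjusted p = 0.0501), and without array 6 it was -1.98 (adjusted p = 7.4e-05). In ATC against normal, Fasn differed by -2.89 within the JK arrays (adjusted p = 3.83e-07) and by -1.99 within the others (adjusted p = 0.333), where the normal side is pools 5 and 6.

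Me1, the cytosolic malic enzyme, was 11.11 to 12.26 (median 11.89) in normal pools, 10.77, 10.95, 10.86 and 10.80 in PTC, 9.10, 9.33, 9.31, 8.97 and 8.04 in ATC, and 7.86 to 13.49 (median 9.62) in recurrent tumours. The normal, PTC and ATC arrays formed 3 separate ranges in descending order. Me1 changed by -2.87 ± 0.60 in ATC (7.33-fold, adjusted p = 0.000754) and by -1.74 ± 0.52 in recurrent tumours (3.35-fold, adjusted p = 0.0126) against normal. The step from PTC to ATC was -1.90 (adjusted p = 0.0525). Acaca, acetyl-CoA carboxylase, was 4.53 to 5.56 (median 5.18) in normal pools, 4.55, 4.43, 4.67 and 4.60 in PTC, 4.43, 4.48, 3.95, 4.40 and 4.42 in ATC, and 4.17 to 6.38 (median 4.58) in recurrent tumours. Its fall in ATC was -0.77 ± 0.28 (adjusted p = 0.0329), near the low end of the scale, and the call was kept in 14 of 23 alternatives. Acly, ATP citrate lyase, was called in no comparison, with 11.35 to 12.68 in normal pools and 11.31 to 11.77 in ATC.

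Among the genes that elongate and desaturate fatty acids, Elovl6, the palmitate elongase, changed most. It was 10.75 to 12.04 (median 11.23) in normal pools, 9.28, 10.43, 9.99 and 9.74 in PTC, 8.04, 8.11, 7.86, 8.75 and 8.34 in ATC, and 8.12 to 14.13 (median 9.19) in recurrent tumours. Normal pools, PTC and ATC did not overlap, in descending order. Elovl6 changed by -3.12 ± 0.68 in ATC (8.68-fold, adjusted p = 0.00109) and by -1.70 ± 0.59 in recurrent tumours (3.26-fold, adjusted p = 0.0294), the latter kept in 20 of 28 alternatives. The difference of -1.48 ± 0.73 in PTC was not called (adjusted p = 0.197).

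Scd2, a stearoyl-CoA desaturase, was 12.36 to 12.87 (median 12.56) in normal pools, 12.16, 12.12, 12.22 and 12.19 in PTC, 11.43, 11.12, 11.38, 12.23 and 11.40 in ATC, and 11.32 to 13.82 (median 11.95) in recurrent tumours. All tumours of the PTC and ATC groups lay below the pools, and the fall was called in ATC (-1.07 ± 0.31, adjusted p = 0.00981). Its other probe sets gave -0.52 to -0.13. Fads1, a desaturase of polyunsaturated fatty acids, was 9.09 to 9.73 (median 9.60) in normal pools, 9.08, 8.64, 8.77 and 8.62 in PTC, 8.13, 8.56, 8.31, 9.51 and 8.61 in ATC, and 6.92 to 9.57 (median 9.10) in recurrent tumours. Fads2, its partner, was 7.12 to 8.01 (median 7.61) in normal pools, 7.10, 6.77, 7.22 and 6.75 in PTC, 6.40, 6.60, 6.41, 7.08 and 6.42 in ATC, and 5.31 to 8.41 (median 6.89) in recurrent tumours. In ATC Fads1 changed by -0.87 ± 0.34 (adjusted p = 0.048) and Fads2 by -1.05 ± 0.38 (adjusted p = 0.0346), and in recurrent tumours Fads2 changed by -0.90 ± 0.33 (adjusted p = 0.0388). Each of these 3 calls was lost when some single arrays were left out, and a second Fads2 probe set gave -0.26 in ATC. Elovl1 and Elovl5, elongases of very long and of polyunsaturated chains, were called in no comparison.

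The count in PTC differed with the arrays in the fit. In a fit of the 6 pools and 4 PTC alone, 20 of 33 members were called and all 20 were lower, where 45.8% of all genes were called. Without pool 5 and recurrent array 6 together, a setting chosen after the data were seen, 11 were called, all lower, and 18.3% of all genes. By arrays alone, 16 of 33 members lay in PTC wholly below all pools and none wholly above, where 34.3% of all genes did not overlap (19.7% lower, 14.6% higher). Members lower in PTC in the fit of 10 arrays included Hmgcs1 (-0.83, adjusted p = 0.000207 there).

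Recurrent tumours differed from each other more than other groups did. The median SD over sterol enzymes was 0.83 in recurrent tumours against 0.41 in ATC, 0.20 in PTC and 0.23 in normal pools, and over fatty acid genes 1.14 against 0.31, 0.13 and 0.37. For all genes it was 0.52 in recurrent tumours, 0.27 in ATC, 0.14 in PTC and 0.18 in normal pools, so genes in general also varied most among recurrent tumours. Array 6 was the highest of the 9 in 23 of 33 members, among them 12 of 17 sterol enzymes and 9 of 12 fatty acid genes, and the lowest in Fads1 (6.92) and Fads2 (5.31). Without it, 22 members were called against normal, 9 higher and 13 lower, and 39.1% of all genes. Without recurrent array 2, 14 were called, 9 higher and 5 lower, and 33.4% of all genes. Among the arrays without JK in the title, which hold only pools 5 and 6 of the normal group, Thrsp alone was called in recurrent tumours against normal (-4.29, adjusted p = 0.00558), and Msmo1 (2.45, adjusted p = 0.016), Srebf2 (1.10, adjusted p = 0.0443) and Thrsp (-4.78, adjusted p = 0.00699) in ATC. The other members called over all arrays kept their direction there.

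Fat cell markers fell in the same tumour classes as the fatty acid genes. Of 11 measured adipocyte markers 7, 9 and 10 were lower in PTC, ATC and recurrent tumours against normal, where 8.03%, 19.1% and 19.3% of all genes were. Ucp1 was at -5.34, -5.92 and -4.89, and Adipoq at -5.42 in ATC and -4.73 in recurrent tumours. Their mean, as a difference from the normal mean, was -2.0 to 0.50 in normal pools, -3.14 to -2.31 in PTC, -3.98 to -2.98 in ATC and -3.93 to -1.22 in recurrent tumours. The mean over the 6 fatty acid synthesis genes was -1.39 to 0.50, -2.0 to -1.67, -2.83 to -2.22 and -2.76 to 0.53 in the same groups. The mean over the 10 genes from squalene to cholesterol ran the other way in ATC, from -0.11 to 0.16, -0.56 to -0.33, 0.30 to 1.15 and 0.13 to 2.27. Pool 5 was lowest on both measures among the pools and lowest in 9 of 12 fatty acid genes. The 2 measures did not go together on every array. Recurrent array 1 had the highest adipocyte mean of the tumours (-1.22), above pool 5 (-2.0). Its fatty acid synthesis mean was -1.88, below that of pool 5 (-1.39). Recurrent array 6 had the highest fatty acid synthesis mean of the tumours, and its adipocyte mean was -2.41. Of the adipocyte markers there, Cidea (13.64) and Pparg (10.89) lay above every normal pool, and Lpl (12.72) lay within their range. The remaining ones, among them Ucp1 (4.69) and Adipoq (6.37), lay below all pools. The part of fat tissue in the falls was not tested.

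**Figure D4:**
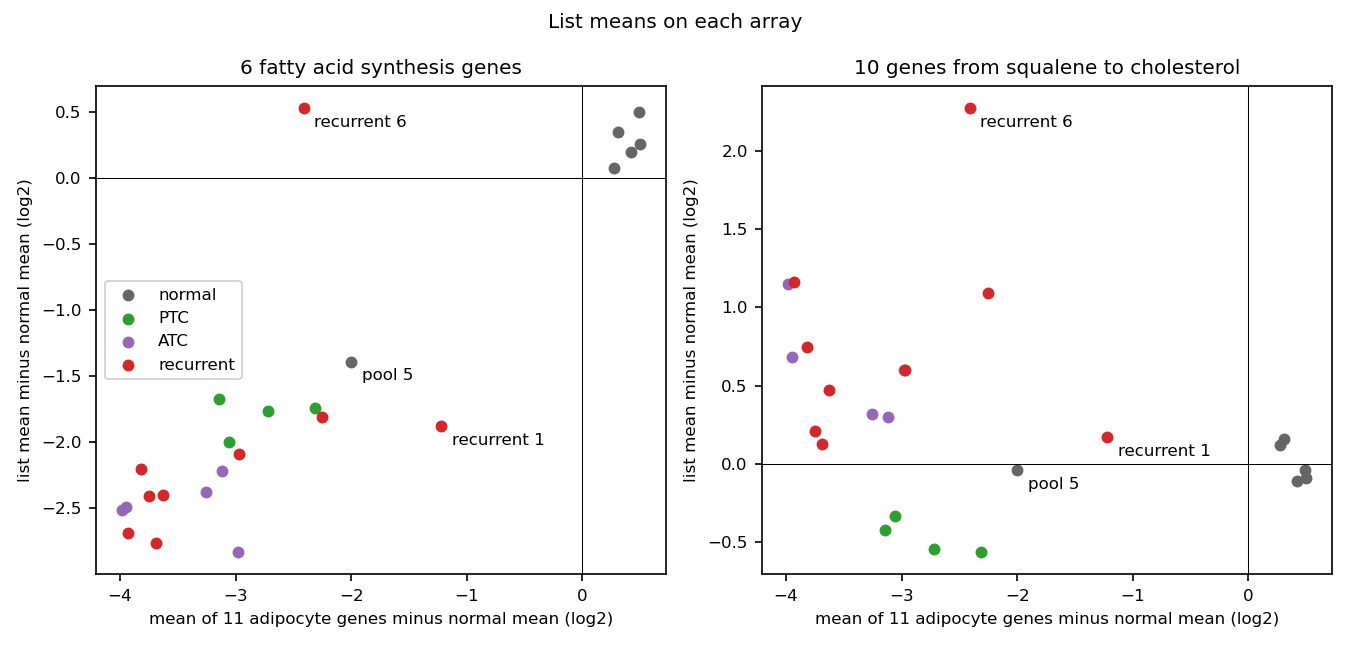
Mean of the 6 fatty acid synthesis genes (left panel) and of the 10 genes from squalene to cholesterol (right panel) on the vertical axis against the mean of 11 adipocyte markers on the horizontal axis, each as log2 difference from the mean of the normal pools, 1 point per array and coloured by group. Normal pool 5 lies at -2.0 on the adipocyte axis, below the other pools, and recurrent array 6 lies at 0.53 on the fatty acid axis, above all other tumours. Recurrent array 1 lies at -1.22 on the adipocyte axis, above all other tumours.

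Other cell markers were counted in the same way. Over all genes 6.16% were called higher and 8.03% lower in PTC against normal. These shares were 15.1% and 19.1% in ATC, and 14.5% and 19.3% in recurrent tumours. Thyrocyte markers (10 measured) were lower in 6, 9 and 9 cases and higher in 1, 0 and 0 in PTC, ATC and recurrent tumours against normal, with Dio1 at -5.80 in PTC and Tg at -7.94 in ATC and -8.17 in recurrent tumours. The thyrocyte mean was -1.84 to -1.26 in PTC, -4.58 to -2.46 in ATC and -4.68 to -2.01 in recurrent tumours. Macrophage markers (11) were higher in 1, 10 and 5 cases, with means of 0.61 to 1.63, 1.94 to 2.65 and -0.84 to 2.81. Mitosis genes (11) were higher in 7, 11 and 11, with means of 1.36 to 2.25, 2.50 to 3.37 and 1.15 to 4.37. Fibroblast genes (10) were higher in 2, 6 and 6, with Col1a1 at 2.64, 4.87 and 4.22. Endothelial genes (7) were lower in 2, 1 and 4, with Kdr at -1.31, -1.51 and -2.0, and the 1 in ATC was not above the share of all genes. Of 4 parathyroid and C cell genes 2, 3 and 3 were lower and 0, 1 and 0 higher, with Scg2 at -5.70 in PTC and Pth at -6.69 in ATC and -8.04 in recurrent tumours. Pth was uneven within these classes, at 14.20 on ATC array 1 and 14.76 and 14.58 on recurrent arrays 4 and 5. Normal pools held 14.42 to 14.78, and the other ATC and recurrent arrays 3.86 to 11.44. The list mean was -6.11 to -3.56 in PTC, -5.22 to -0.67 in ATC and -6.40 to -0.75 in recurrent tumours. Of 6 sebaceous genes 0, 2 and 1 were lower, with Mgst1 at -1.86 and -1.90 in the last 2 classes. The 1 in recurrent tumours was not above the share of all genes. None of 10 skeletal muscle genes was called in these 3 comparisons, but their mean varied widely between arrays. It was -1.34 to 1.62 in normal pools, -1.28 to 0.57 in PTC, -2.72 to 1.57 in ATC and -5.14 to 3.48 in recurrent tumours. The part of these cells in the changes of the sterol and fatty acid genes was not tested.

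Other lipogenic genes fell as well. Of 11 measured genes of other lipogenic and triglyceride steps 5 fell in PTC, 6 in ATC and 4 in recurrent tumours against normal, and none rose. Over all genes 8.03%, 19.1% and 19.3% fell in these comparisons. Scd1, the main desaturase of fat and liver, changed by -4.43 in PTC (adjusted p = 0.000158), by -4.75 in ATC (adjusted p = 9.9e-06) and by -3.30 in recurrent tumours (adjusted p = 0.000118). Dgat2, which completes triglycerides, changed by -3.89, by -3.22 and by -2.88, and Acacb, the mitochondrial carboxylase, by -2.49, by -2.66 and by -1.99. Of 6 other measured genes of sterol synthesis and uptake none was called in PTC or ATC against normal and 1 in recurrent tumours. Over all genes 14.2%, 34.3% and 33.8% were called. The 1 gene was Npc2, which hands cholesterol out of lysosomes (-1.23, adjusted p = 0.00262). Against PTC, Npc2 changed by -1.42 in ATC (adjusted p = 0.0114) and by -1.84 in recurrent tumours (adjusted p = 0.000395), while its partner Npc1 rose by 1.59 (adjusted p = 0.0341) and 1.63 (adjusted p = 0.0125).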

How the data were processed

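The authors deposited log2 intensity values of 22690 probe sets on 24 Affymetrix Mouse430A_2 arrays, made with RMA in Partek, per the submitters' processing notes; the sources used here name no version of either. RMA brings arrays to a common distribution, so a shift shared by all genes would not be seen, and high levels are compressed. Probe sets with 1 gene symbol (20393; 691 had several and 1606 none) were named through the platform annotation and updated by gene ID with RefSeq GRCm38.p6 (20364 matched, 29 kept their symbol). The probe set with the highest mean stood for each of 12394 genes. Values ran from 2.71 to 14.96.

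One model of 4 group means was fitted in limma 3.58.1 under R 4.3.3 to the 24 arrays together, using Benjamini-Hochberg adjustment over all genes and a call under an adjusted p of 0.05. The fit was tested on simulated data. Tables and figures used Python 3.11.15, pandas 2.3.3 and matplotlib 3.10.9. Differences are log2, folds are computed from them, and precision is limited by how many arrays a group has. List means are the mean over genes of each array's difference from the normal mean. Members called at least once are given with their arrays, and others by range and count. Of each further list the called members with the largest differences are named. The 33 members and the 13 other lists were chosen with earlier results of these data known. Alternatives were the 2 groups alone, title kind as a block or arrays of one kind, the mean of probe sets, a filter on dim genes (lowest 25% by mean), renewed quantile normalization, centring, another spread model, array weights and leaving out each array.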

Additional observations from a re-analysis of the deposited data

Results flagged for a closer look

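In each group of 4 to 9 arrays the highest and lowest value of every member was set against the gap expected of a single sample far from the others (Dixon's criterion, which chance meets in about 1 group in 20). It was met 23 times among 132 pairs of member and group.

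Recurrent array 6 stood above the other 8 recurrent arrays in 12 members. They were Pmvk (11.47), Fdps (11.56), Sqle (13.25), Lss (11.02), Nsdhl (11.26), Insig2 (10.92), Srebf1 (11.94), Acly (14.29), Acaca (6.38), Fasn (13.68), Elovl5 (14.88) and Elovl6 (14.13). The same array stood below the others in Fads1 (6.92). On that array the sebaceous markers Scd3 (14.66), Elovl3 (13.99), Mc5r (9.44) and Krt79 (12.22) were higher than on any other recurrent array, while Plin5 (6.07), of the same list, was lower than on 5 of the others. Their part in these values was not tested.

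Normal pool 5 stood below the other 5 pools in Acly (11.35), Acss2 (7.52), Fasn (10.61) and Thrsp (9.76). Its Ucp1 value was 5.60. In ATC, array 4 stood high in Sc5d (9.60), Fads2 (7.08) and Scd2 (12.23), array 3 low in Acaca (3.95), array 5 low in Me1 (8.04) and array 2 high in Thrsp (6.89).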

How the results depend on the processing

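No paired analysis was possible because replicate numbers follow accession order and join no samples across groups. No called member changed direction under any alternative, and 1121 of 1313 refits of called members kept their call. Many of these refits left out a single array, and the kept share differed by setting. Array weights kept 54 of 54 calls, the 3 title kinds as a block 33 of 54, and the arrays without JK alone 4 of 31. Over all arrays 3, 15 and 16 members were called in PTC, ATC and recurrent tumours against normal, 10 in ATC and 10 in recurrent tumours against PTC and 0 in recurrent tumours against ATC. Fitting the 2 groups alone gave 20 called members in PTC against normal (45.8% of all genes), 23 in ATC against normal (51%), 17 in ATC against PTC (37%) and 6 in recurrent tumours against PTC (10.9%). JK arrays alone gave 16 in PTC against normal (25.5%) and 1 in recurrent tumours against ATC (7.53%; Fads1, 0.97, adjusted p = 0.0203). Arrays without JK gave 3 in ATC (6.12%) and 1 in recurrent tumours (4.06%) against normal, with 2 normal pools. With title series as a block ATC against PTC had 5 (15.6%), and with 3 title kinds it had 6 (15.7%), recurrent against PTC 6 (18.8%) and recurrent against normal 9 (30.5%). Array weights gave 23 in PTC (51.4%) and 23 in ATC (59.4%) against normal, 19 in ATC against PTC (51%) and 2 in recurrent against ATC (11%), so the share of all genes called rose too. Without pool 5 and recurrent array 6, chosen after seeing the data, PTC against normal had 11 (18.3%). Leaving out single arrays gave 2 to 3 in PTC, 10 to 15 in ATC and 13 to 22 in recurrent tumours against normal, 7 to 10 in ATC against PTC, 8 to 12 in recurrent against PTC and 0 in recurrent against ATC. Why the counts changed was not tested in any setting.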

Other observations

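Genes of fatty acid oxidation were lower in the tumours together with those of synthesis. Of 13 measured genes 7 fell in PTC, 11 in ATC and 8 in recurrent tumours against normal pools, and none rose. Over all genes 8.03%, 19.1% and 19.3% fell. Hadhb, of the mitochondrial trifunctional protein, fell by 1.63 in PTC (adjusted p = 0.00799). Ppargc1a, a coactivator of mitochondrial genes that is abundant in brown fat, changed by -4.0 in ATC (adjusted p = 0.000476) and by -3.66 in recurrent tumours (adjusted p = 0.000292). Ppara, a receptor that drives oxidation genes, changed by -1.45, by -2.11 and by -1.43 in the 3 classes, and Acadm, medium-chain acyl-CoA dehydrogenase, by -1.80 in ATC and by -1.43 in recurrent tumours. Against PTC none was called in ATC and Etfdh rose by 0.92 in recurrent tumours. Adipocyte markers fell in the same classes, and their part was not tested.

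Of 9 measured genes of sterol efflux and the liver X receptor, 2 rose in PTC, 2 rose and 2 fell in ATC, and 2 rose and 1 fell in recurrent tumours against normal pools. Over all genes 6.16% rose and 8.03% fell in PTC, 15.1% and 19.1% in ATC, and 14.5% and 19.3% in recurrent tumours. In recurrent tumours the called part of the list was near the 33.8% called over all genes. Ch25h, which makes an oxysterol that restrains SREBP processing, rose by 1.32, 1.52 and 1.13. Abcg1, a cholesterol exporter of macrophages among other cells, rose by 1.68 in PTC (adjusted p = 0.00599) and 0.89 in recurrent tumours, and Apoe rose by 1.73 in ATC (adjusted p = 0.0449). Mylip, a ubiquitin ligase induced by the liver X receptor, changed by -1.89 in ATC (adjusted p = 1.73e-05) and by -1.50 in recurrent tumours (adjusted p = 4.47e-05).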
